A study of Mus musculus with 13 samples.

Results

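Pooled Lkb1/Braf melanocytic proliferations, mouse skin lesions taken as uncultured tissue, were compared with growth-arrested Cdkn2a/Braf melanocytes sorted by flow cytometry at day 50. The comparison uses 5 of the 13 arrays of the series, 3 of the proliferation and 2 of the day 50 cells, and was chosen by the sample labels. Each array measured messenger RNA in 1 sample on an Affymetrix whole-transcript platform. By the series title the Braf allele shared by both groups is the oncogenic BrafV600E. The proliferations also carry the Lkb1 genotype (Lkb1 is the kinase encoded by Stk11), and the day 50 cells carry the Cdkn2a genotype instead. The labels describe the day 50 cells as taken after growth arrest and the proliferations as pooled, give no age for the proliferations, and do not say how many lesions went into a pool. The sources used here do not give the form of each allele, the driver of recombination or the gate of the sort. Genotype and material (tissue or sorted cells) differ together between these groups and cannot be told apart.

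Oncogenic BRAF drives the MEK and ERK kinases, and in melanocytes an initial phase of growth gives way to a stable arrest, as in a benign naevus. The tumour suppressor kinase LKB1 activates AMPK and the AMPK-related kinases, and AMPK restrains mTORC1, the kinase complex that promotes protein, lipid and nucleotide synthesis when nutrients and growth factors are present. Melanocytes are pigment cells of neural crest origin that make melanin in melanosomes under the transcription factor MITF. The series title poses the question of what mTORC1 activation does to the Braf-induced arrest, and this comparison sets a growing lesion against arrested cells.

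Proliferations had more transcripts of mitosis, and of skin, fat and immune cells, than the arrested cells. They had less of the melanocyte pigment genes, of neural crest genes and of immediate early genes. DNA replication genes rose less. Skeletal muscle genes rose mostly on proliferation replicates 2 and 3 (summed intensity 27169 and 25039, against 2814 on replicate 1). Levels are log2(intensity + 1), differences are proliferation minus day 50 on that log2 scale with a standard error (SE), and a gene passed the test at a limma adjusted p under 0.05 over 19937 genes. On that rule 1817 genes (9.11% of those tested) were higher in the proliferations and 1835 (9.2%) were lower. The list counts below are to be read beside these shares. With 2 further conditions, a difference of 1 or more and groups whose arrays do not overlap, there were 1002 higher (5.03%) and 511 lower (2.56%). Of the genes called, 49.8% were higher. That share was 34.2% after median centring, 32.9% after scaling to a common interquartile range, 60.9% with array weights and 65.8% in a fit of only the 5 arrays, so the balance between the directions depends on the setting. The median difference over all genes was -0.10.

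The arrays limit the precision, with 3 against 2 samples that the labels call biological replicates. If replicates of a group shared animals, p-values would measure only the spread between these arrays. The day 50 pair differed with an SD of 0.703 across genes, against 0.271 to 0.273 for the pairs of proliferation arrays, and the array weights gave each day 50 array 0.331. The spread of log2 levels over genes (interquartile range) was 1.93 to 1.94 at day 50 and 2.00 to 2.11 in the proliferations. Xist, the X-inactivation RNA of female cells, was 9.57 to 10.98 on all 5 arrays, and the Y-linked Uty, Eif2s3y and Kdm5d were at most 5.15, so these markers were alike in both groups. The 3 targeted genes did not pass the test. Stk11 read 8.09, 8.23 and 8.36 in the proliferations and 9.17 and 7.66 at day 50 (difference -0.18, SE 0.35, limma adjusted p = 0.744). Cdkn2a differed by -0.10 (SE 0.15, limma adjusted p = 0.665) and Braf by -0.03 (SE 0.11, limma adjusted p = 0.875). The sources used here do not say whether their probes lie in the altered parts of the alleles, and the genotypes cannot be checked from them.

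Pigment genes were lower in the proliferations. Of the 23 measured genes of melanin synthesis and the melanosome, 12 fell and 0 rose, with a list median of -0.67 (-1.37 without day 50 replicate 1), against 9.2% of all genes called lower. Tyrp1, an enzyme of melanin synthesis, read 8.31, 8.39 and 8.48 in the proliferations and 12.71 and 12.92 at day 50. All 3 proliferation arrays lay far below both day 50 arrays, a difference of -4.43 (SE 0.18, limma adjusted p = 1.82e-06), or 21.5-fold on the scale of intensity + 1. Pmel, the fibril protein of the melanosome, read 8.01, 8.11 and 8.37 against 11.27 and 11.90 (difference -3.42, SE 0.20). Dct, dopachrome tautomerase, read 10.19, 9.98 and 10.19 against 12.69 and 13.05 (difference -2.75, SE 0.25), again without overlap. Mlana, a melanosome protein, fell by 2.47 (SE 0.18) and Rab27a, the GTPase that ties melanosomes to their transport motor, fell by 2.46 (SE 0.21). The motor itself, Myo5a, fell by 1.12 (SE 0.23) and its adaptor Mlph fell by 1.43 (SE 0.25). The ion and solute transporters Slc45a2 and Slc24a5 fell by 1.94 (SE 0.15) and 1.69 (SE 0.21).

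The day 50 arrays were uneven for part of this list. Tyr, the tyrosinase that starts melanin synthesis, read 7.40 on replicate 1 and 9.90 on replicate 2, against 6.58, 6.18 and 6.67 in the proliferations (difference -2.17, SE 0.54, limma adjusted p = 0.0202). Without proliferation replicate 2 its difference was -2.02 and no longer passed (limma adjusted p = 0.0653). It was -0.92 without day 50 replicate 2, where Myo5a was -0.68, and both still passed. Gpnmb, a melanosome and lysosome glycoprotein, read 9.45 and 11.23 at day 50, a range that held all 3 proliferation arrays (9.80, 9.91 and 9.94), and it did not pass. Bace2, a protease that processes PMEL, and Rab32, a GTPase of melanosome biogenesis, also passed (-1.87, SE 0.28, and -0.67, SE 0.18).

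**Figure D1:**
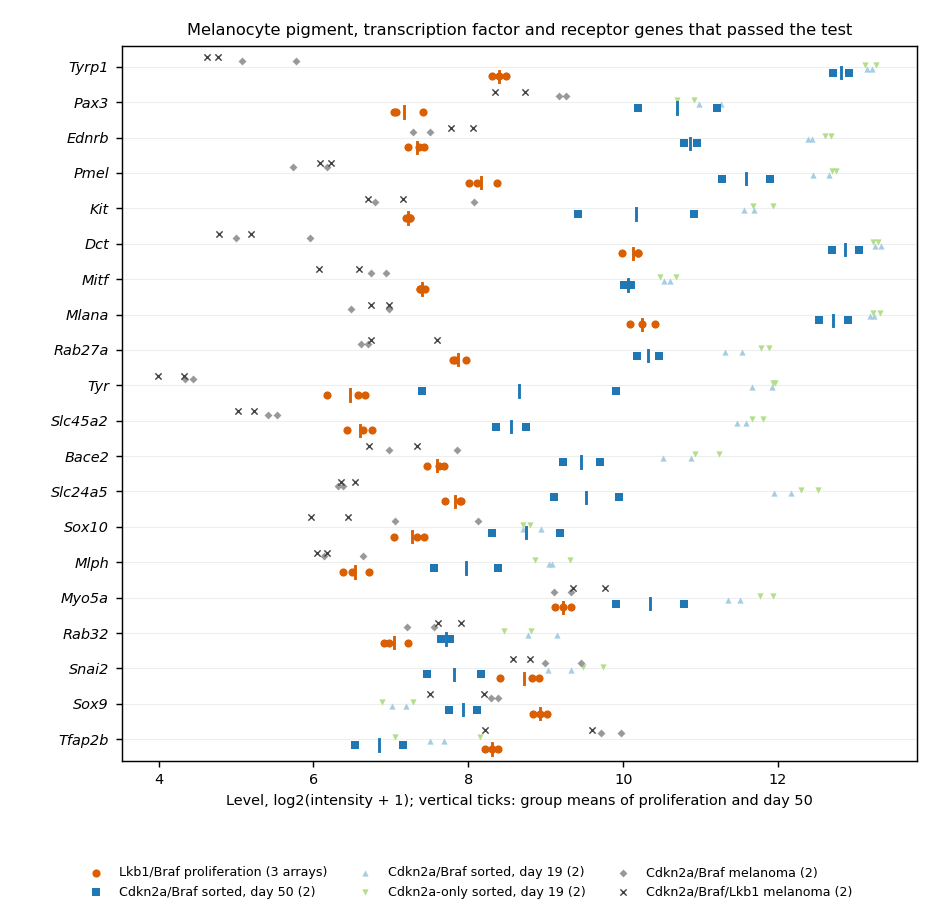
Levels on each array of the pigment genes, lineage transcription factors and receptors that passed the test, as log2(intensity + 1) on the horizontal axis with 1 row per gene; circles are the 3 proliferation arrays, squares the 2 day 50 arrays, the paler symbols the other 4 groups of 2 arrays, and vertical ticks the means of the 2 groups compared. For Tyrp1 the proliferation arrays lie between 8.31 and 8.48 and the day 50 arrays at 12.71 and 12.92.

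Promoter windows of Tyrp1 and Dct are shown because these enzymes fell by 4.43 and 2.75 and their windows hold the core letters of the M-box, the element that MITF is known to bind in pigment genes. Each window of 300 bases runs from upstream of the annotated start to just after it, 5′ to 3′ on the gene's strand, from RefSeq on GRCm38.p6. Capitals mark CATGTG or its reverse complement CACATG. The Tyrp1 window is chr4:80833963-80834262 (+ strand), with the match beginning 46 bases before the start. The Dct window is chr14:118052197-118052496 (- strand), with matches beginning 232 and 150 bases before the start.
Tyrp1: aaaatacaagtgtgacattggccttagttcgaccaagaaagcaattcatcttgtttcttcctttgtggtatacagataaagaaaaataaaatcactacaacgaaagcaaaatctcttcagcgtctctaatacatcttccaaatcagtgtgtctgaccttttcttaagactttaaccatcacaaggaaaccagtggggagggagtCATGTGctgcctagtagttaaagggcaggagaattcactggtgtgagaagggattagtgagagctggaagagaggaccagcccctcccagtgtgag
Dct: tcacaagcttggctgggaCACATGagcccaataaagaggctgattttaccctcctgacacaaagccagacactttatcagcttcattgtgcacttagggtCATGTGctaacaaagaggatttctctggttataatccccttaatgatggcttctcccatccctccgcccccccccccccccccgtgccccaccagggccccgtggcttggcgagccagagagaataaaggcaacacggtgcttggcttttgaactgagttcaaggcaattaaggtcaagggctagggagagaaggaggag
On either strand these letters were found in 8 of the 19 windows of the pigment list (42.1%), from 16 genes with a window, and in 14.2% of all 32851 windows. Tyr and Slc24a5 are the other called genes with a match. A match of 6 letters is a description of the sequence, not a site in use.

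Lineage transcription factors and receptors of melanocytes fell unevenly. Of 18 measured, 5 fell and 3 rose (list median -0.19). Mitf read 7.38, 7.44 and 7.37 in the proliferations and 10.01 and 10.10 at day 50, tight within both groups (difference -2.66, SE 0.15, limma adjusted p = 1.15e-05). Ednrb, the endothelin receptor of melanoblasts, read 7.43, 7.36 and 7.22 against 10.95 and 10.78 (difference -3.53, SE 0.13). Pax3, which acts upstream of Mitf, fell by 3.53 (SE 0.27), and Kit, the receptor for stem cell factor, fell by 2.93 (SE 0.43). Sox10 fell by 1.47 (SE 0.33), less than Mitf, and its day 50 arrays were 9.18 and 8.30. Without day 50 replicate 1 the Sox10 difference was -1.03 and did not pass (limma adjusted p = 0.0628). The genes that rose, Tfap2b (1.45, SE 0.40), Sox9 (0.99, SE 0.21) and Snai2 (0.90, SE 0.24), are transcription factors that epidermal and hair follicle cells also use. With array weights or the replicate block 0 of these increases passed, and 1 passed without day 50 replicate 1 and without proliferation replicate 1 or 3. Snai2 was 0.55 without day 50 replicate 1 (limma adjusted p = 0.145).

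Neural crest and Schwann-like genes were also lower in the proliferations than at day 50. Of 18 measured, 10 fell and 1 rose (list median -0.85), and 6 were lower with array weights or with the replicate block. The list sum was 3907 to 4292 in the proliferations, 9187 to 16468 at day 50 and 4767 to 5559 in day 19 Cdkn2a/Braf cells. Against day 19 the day 50 cells were higher in 6 of the 18 and lower in 0, whereas pigment genes were lower in 17 of 23. Cdh19, a cadherin of Schwann cell precursors, read 5.48, 5.38 and 5.76 in the proliferations and 9.06 and 8.70 at day 50 (difference -3.34, SE 0.64). Mal, a myelin proteolipid, fell by 2.68 (SE 0.17), and the adhesion molecules Ncam1 and Nrcam fell by 2.52 (SE 0.27) and 2.10 (SE 0.39). Pmp22, a peripheral myelin protein, read 13.17 on day 50 replicate 1 and 10.76 on replicate 2, against 9.77 to 10.08 in the proliferations (difference -1.99, SE 0.52, limma adjusted p = 0.0265), and it did not pass without any 1 of the proliferation arrays (limma adjusted p 0.0605 to 0.0789). Its difference was -0.79 without day 50 replicate 1. The Schwann cell marker list is not independent of the neural crest list, as it also holds Cdh19 and the uneven Pmp22. It had 4 of 7 genes lower and 0 higher. Its summed intensity was 6075 to 12948 at day 50, 2794 to 3135 in the proliferations and 2425 to 3284 in day 19 Cdkn2a/Braf cells. Endothelial markers behaved alike, with 4 of 18 genes lower and 0 higher and a sum of 2361 to 5517 at day 50 against 1923 to 2053. Without day 50 replicate 2 the endothelial count was 12, without replicate 1 it was 2, and in the fit of only the 5 arrays it was 0. The part of these other cells in the neural crest result was not tested.

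The tissue had more marker RNA of several cell types other than melanocytes, though not of Schwann or endothelial cells (above). Because these are bulk samples, fewer cells of a type and less RNA per cell cannot be told apart, for melanocytes as for any other cell. Of 20 macrophage and dendritic cell genes, 15 rose and 0 fell (list median 1.99), and the summed intensity was 10070 to 11338 in the proliferations against 1293 to 1730 at day 50. Cd68, a lysosomal glycoprotein of macrophages, read 10.14, 10.16 and 10.08 against 5.95 and 6.63 (difference 3.84, SE 0.27). Mrc1, the mannose receptor, rose by 4.27 (SE 0.50) and Mpeg1, perforin-2, by 3.84 (SE 0.36). With array weights 9 of these 15 passed. MHC class II genes rose in 4 of 8 and fell in 0 (sum 5025 to 6832 against 660 to 1385), although their day 50 arrays disagreed: H2-Ab1, a class II chain, read 7.84 and 5.68 there and 10.29 to 10.54 in the proliferations (difference 3.65, SE 0.81). With array weights 1 passed, and without day 50 replicate 2, 2 did, H2-Ab1 not among them (limma adjusted p = 0.0532). Mast cell markers rose in 3 of 11, led by the protease Mcpt4 (4.33, SE 0.49) (sum 1417 to 1692 against 564 to 603). T and NK cell markers rose in 5 of 15 (sum 2217 to 2568 against 1399 to 1672; 2 passed with array weights), among them Cd3g, a chain of the T cell receptor complex (3.16, SE 0.29). B and plasma cell markers rose in 2 of 10, with Jchain, the joining chain of secreted antibodies, at 3.84 (SE 0.19) (sum 1115 to 1312 against 701 to 773). Their list median was -0.08, so the list did not rise as a whole. Neutrophil markers had 0 of 11 higher and 1 lower (sum 613 to 766 against 557 to 563).

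Structural cells of skin were also richer in the proliferations. Hair shaft and inner root sheath genes rose in 12 of 21 and fell in 0 (sum 10940 to 14997 against 2237 to 2322). Sebaceous gland genes rose in 9 of 12 and fell in 0 (sum 6504 to 6704 against 2061 to 2575), among them Krt79, a keratin of the sebaceous duct (3.71, SE 0.65), and Far2, a wax-forming reductase (3.51, SE 0.62), and 4 passed with array weights. Adipocyte genes rose in 8 of 12 and fell in 1 (sum 9333 to 12599 against 1628 to 2180), with Lpl, lipoprotein lipase, at 4.05 (SE 0.41). Fibroblast genes rose in 10 of 24 and fell in 1, Sparc, a matrix glycoprotein (sum 23507 to 27208 against 14698 to 16568). The fibroblast count was 4 with array weights and 6 without proliferation replicate 1 or 2. Smooth muscle and pericyte genes rose in 5 of 12, with Acta2, smooth muscle actin, at 2.71 (SE 0.23) (sum 2209 to 2673 against 1440 to 1810; 3 passed without proliferation replicate 3).

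Skeletal muscle genes had a median of 2.67, and 5 of 14 rose, but their summed intensity in the proliferations ran from 2814 to 27169 against 1326 to 1392 at day 50. Proliferation replicate 1 was the low one. Without it 11 of 14 passed, and without proliferation replicate 2 or 3, 0 passed; without either day 50 array 1 passed. Keratinocyte and epidermal genes rose in 8 of 25 and fell in 1 (list median 1.11), with sums of 30286 to 32821 in the proliferations and 16402 to 20994 at day 50. The sorted day 19 Cdkn2a/Braf cells had 4688 to 5289, so the sorted day 50 cells carried more epidermal signal than the day 19 sort. The basal keratin Krt5 read 11.76, 11.75 and 11.68 in the proliferations and 11.78 and 10.72 at day 50, and did not pass. Among the 8 that rose were Lor, loricrin (4.21, SE 0.86), and Ivl, involucrin (2.21, SE 0.36), of the outer, differentiating layers. The regulator Grhl1 also rose (2.26, SE 0.32), and the rest of the 8 are not named here. Gata3, which is on the hair shaft and inner root sheath list, rose by 2.08 (SE 0.22). Itga6, an integrin of basal cells, fell by 0.93 (SE 0.25), and by 0.52 without day 50 replicate 1, where it did not pass (limma adjusted p = 0.156). The keratinocyte count was 4 with array weights and 15 in the fit of only the 5 arrays. The arrays have no detection calls, so no marker can be said to be at 0 in the sort, and the part of these cells in the results below was not tested.

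**Figure D2:**
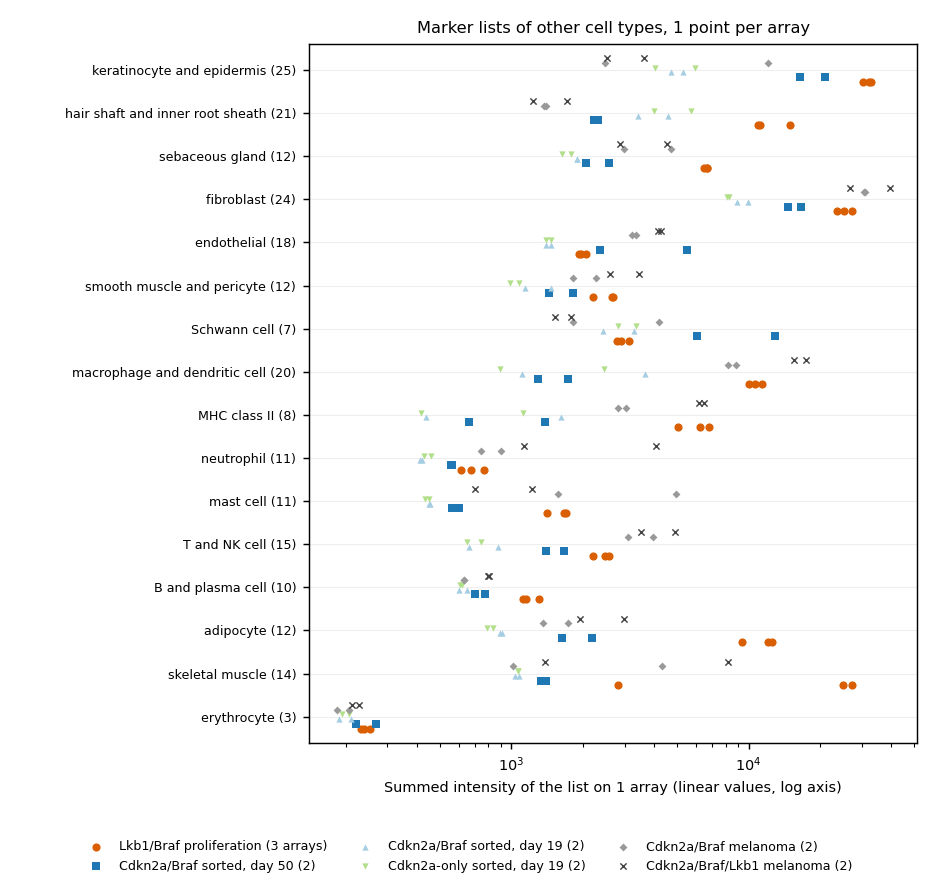
Summed linear intensity of each marker list of another cell type on a log axis, 1 point per array and 1 row per list, for all 6 groups. Macrophage and dendritic cell genes sum to 10070 to 11338 on the proliferation arrays and 1293 to 1730 on the day 50 arrays, and the proliferation points for skeletal muscle spread from 2814 to 27169.

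Mitosis genes were higher in the proliferations. Of 32 measured, 13 rose and 0 fell, with a list median of 1.03, against 9.11% of all genes called higher. On 28 of the 32 the arrays of the groups did not overlap and the proliferations were higher. The share of all genes without overlap alone was not counted, so this count has no reference beside it. Mad2l1, a spindle checkpoint protein, read 8.61, 8.45 and 9.15 in the proliferations and 4.85 and 6.01 at day 50 (difference 3.31, SE 0.45, limma adjusted p = 0.00109). Kif11, the motor that separates the spindle poles, read 7.76, 7.53 and 8.59 against 5.18 and 4.79 (difference 2.97, SE 0.45). Top2a, the topoisomerase that untangles sister chromatids, read 9.84, 9.61 and 10.16 against 7.55 and 7.45 (difference 2.37, SE 0.41), and proliferation replicate 3 was the highest for all 3 genes. Mki67, the standard marker of cycling cells, read 8.59, 8.61 and 8.94 against 6.93 and 6.51 (difference 2.00, SE 0.37, limma adjusted p = 0.0057), or 3.99-fold. Ccna2, cyclin A2, rose by 2.12 (SE 0.37), Hmmr, a spindle protein, by 2.24 (SE 0.43), and Bub1, a checkpoint kinase, by 2.08 (SE 0.52). Cks2, a subunit of cyclin-dependent kinases, rose by 3.03 (SE 0.73), with day 50 arrays at 3.77 and 7.14, and did not pass without proliferation replicate 1 or 3 (limma adjusted p 0.0509 and 0.0558). Its difference was 1.35 without day 50 replicate 1. Smaller increases passed for Kif23, Cenpe, Ube2c, Nusap1 and Aurkb (0.76 to 1.49), though Cenpe was 0.95 without day 50 replicate 1 (limma adjusted p = 0.193). Cdk1, the mitotic kinase, differed by 1.18 (SE 0.37, limma adjusted p = 0.0523) without overlap. The count was 4 with array weights, where Mki67 no longer passed (limma adjusted p = 0.0577), 6 with the replicate block, 8 without proliferation replicate 1 and 6 without proliferation replicate 3. Keratinocytes, hair matrix, immune and other cells of skin also divide, and the material does not show which cells the mitosis transcripts came from.

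DNA replication genes moved less. Of 31 measured, 5 rose and 0 fell (list median 0.57), against 9.11% of all genes called higher. Gins1, a subunit of the replicative helicase, read 6.82, 6.30 and 6.75 against 5.31 and 4.82 (difference 1.57, SE 0.27). Ccne2, cyclin E2, rose by 1.41 (SE 0.33), the polymerase subunits Pola1 and Pole by 0.93 (SE 0.22) and 0.70 (SE 0.18), and Cdc45, a helicase factor, by 0.62 (SE 0.16). Pcna, the polymerase clamp, read 11.26, 11.12 and 11.61 against 9.46 and 11.19, so day 50 replicate 2 lay among the proliferations, and it did not pass. The median was 0.23 without day 50 replicate 2. The count was 1 with array weights or the replicate block, 9 without day 50 replicate 1, 3 without proliferation replicate 1 and 2 without proliferation replicate 3.

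Promoter windows of Kif11 and Top2a are given because they are among the mitosis genes with the largest increases, and both hold the letters of the cell cycle homology region, which the DREAM and MuvB complexes are known to bind in G2/M genes. Windows are as above, and capitals mark TTTGAA or its reverse complement TTCAAA. The Kif11 window is chr19:37376132-37376431 (+ strand), with the match beginning 19 bases before the start. The Top2a window is chr11:99024140-99024439 (- strand), with matches beginning 179 and 23 bases before the start.
Kif11: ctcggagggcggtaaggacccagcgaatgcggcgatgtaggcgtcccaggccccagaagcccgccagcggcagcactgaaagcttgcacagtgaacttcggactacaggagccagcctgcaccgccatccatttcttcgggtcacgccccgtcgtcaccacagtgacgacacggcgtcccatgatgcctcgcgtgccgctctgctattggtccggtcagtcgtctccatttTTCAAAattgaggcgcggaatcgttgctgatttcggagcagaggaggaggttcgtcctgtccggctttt
Top2a: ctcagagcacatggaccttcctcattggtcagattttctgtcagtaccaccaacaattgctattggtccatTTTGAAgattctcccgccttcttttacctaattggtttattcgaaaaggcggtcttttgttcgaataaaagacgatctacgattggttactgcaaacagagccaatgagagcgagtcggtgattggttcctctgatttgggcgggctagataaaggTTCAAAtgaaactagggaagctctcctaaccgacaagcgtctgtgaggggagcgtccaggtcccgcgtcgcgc
On either strand these letters were found in 21 of the 28 windows of the mitosis list (75.0%) and in 17.9% of all windows. Of the 13 called genes 11 have a window and 6 hold the letters (Kif11, Top2a, Mki67, Hmmr, Kif23 and Ube2c). Members that were not called hold them as well, 19 of the 26 genes with a window in all.

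Regulators of cell cycle entry did not move as one. Of 15 genes, 2 rose and 4 fell (list median -0.21; 2 fell with array weights). Ccnd2, cyclin D2, read 10.37, 10.50 and 10.49 in the proliferations and 9.01 and 8.92 at day 50 (difference 1.49, SE 0.24, limma adjusted p = 0.0026), and Cdk6, its kinase partner, rose by 0.97 (SE 0.28). Ccnd1, cyclin D1 and a known output of ERK, differed by -0.23 (SE 0.16, limma adjusted p = 0.346). Myc read 8.49, 8.35 and 8.37 against 9.76 and 9.78, lower by 1.37 in the proliferations (log2 difference -1.37, SE 0.23). Cdk4 fell by 0.74 (SE 0.15) and Rbl2, the p130 pocket protein, fell by 0.79 (SE 0.23). Neither Cdk6 without day 50 replicate 1 (0.55, limma adjusted p = 0.201) nor Rbl2 without replicate 2 (-0.45, limma adjusted p = 0.191) passed. Cdk2 had the largest decrease (difference -2.32, SE 0.23). In RefSeq the Cdk2 gene lies within the span of Pmel, and whether the Cdk2 probe set reads Pmel transcripts was not tested.

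CDK inhibitors and growth arrest genes were split, 4 of 20 higher and 4 lower (list median -0.09). Cdkn1b, the inhibitor p27, read 8.37, 7.68 and 8.40 in the proliferations and 10.80 and 10.78 at day 50 (difference -2.64, SE 0.20, limma adjusted p = 3.74e-05), or 6.23-fold lower. Btg2, an antiproliferative gene, read 8.52, 8.55 and 8.33 against 10.24 and 9.73 (difference -1.52, SE 0.34), and did not pass without day 50 replicate 1 (-1.26, limma adjusted p = 0.0552). Cdkn2d, the inhibitor p19INK4d, fell by 1.40 (SE 0.35), with day 50 arrays at 8.37 and 6.92, and Txnip, a thioredoxin-binding protein induced in quiescence, fell by 0.97 (SE 0.28). The Cdkn2d difference was -0.67 without day 50 replicate 1 (limma adjusted p = 0.0777), and it did not pass without proliferation replicate 2 or 3 (0.0691 and 0.0556). In the other direction Igfbp7, a secreted IGF-binding protein, rose by 1.77 (SE 0.39), Cdkn2c, p18INK4c, by 1.48 (SE 0.21), Cdkn1c, p57, by 1.29 (SE 0.16) and the stress gene Gadd45a by 0.94 (SE 0.19). The lower count was 1 with array weights and without day 50 replicate 1, and 2 with the replicate block and without proliferation replicate 2 or 3. Of 17 p53 targets 0 rose and 1 fell, Plk2 (difference -1.74, SE 0.22). Of 23 secreted inflammatory and senescence factors 2 rose and 0 fell, Mmp3, a matrix protease (2.49, SE 0.52), and Il1a (1.12, SE 0.30).

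**Figure D3:**
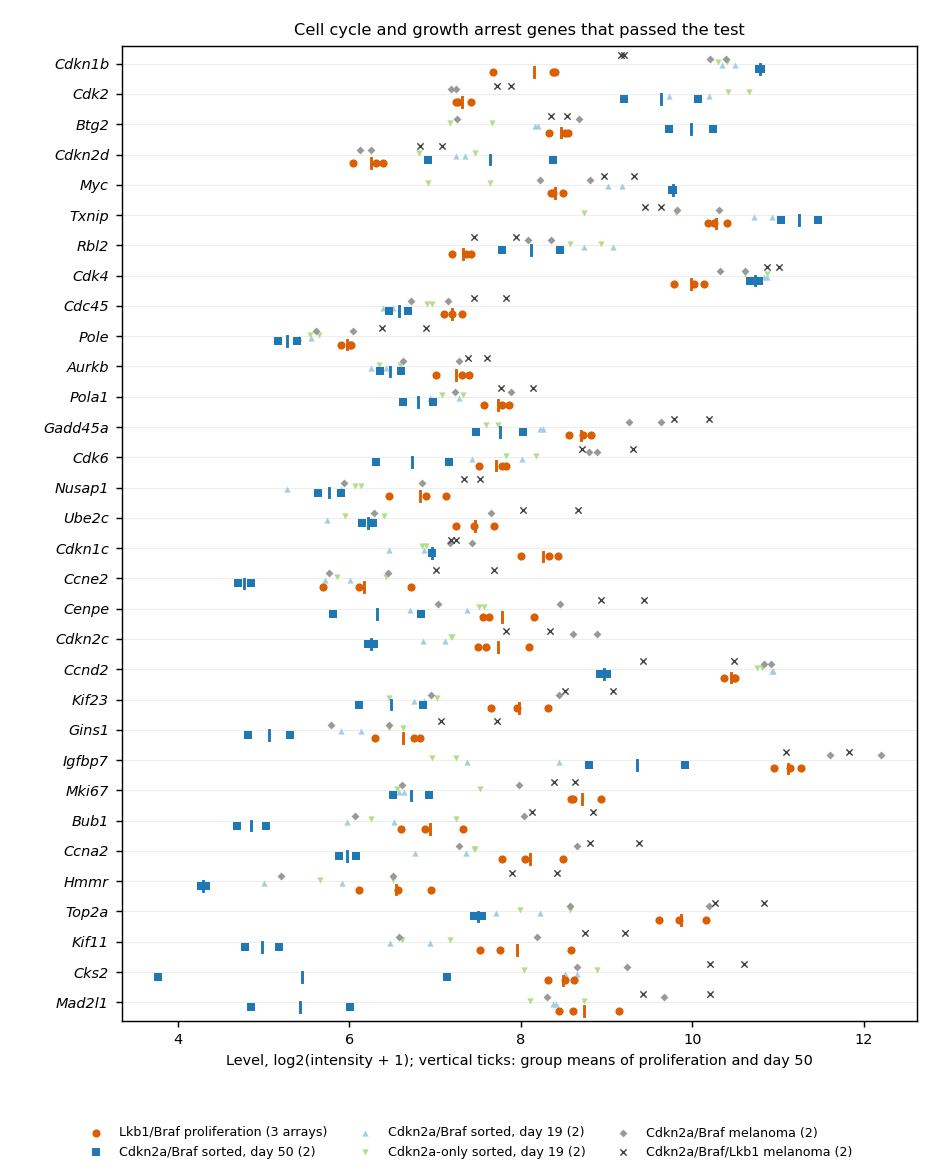
Cell cycle and growth arrest genes that passed the test, as log2(intensity + 1) on the horizontal axis with 1 row per gene, symbols as in the plot of pigment genes and vertical ticks at the means of the 2 groups compared. Mki67 lies at 8.59 to 8.94 on the proliferation arrays and 6.51 and 6.93 on the day 50 arrays, and Cdkn1b at 7.68 to 8.40 against 10.78 and 10.80.

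Immediate early genes, which follow ERK and stress signals within minutes, were lower in the proliferations. Of 23 measured, 14 fell and 0 rose (list median -0.92), against 9.2% of all genes called lower, and 6 fell with array weights. Fosb read 6.35, 6.33 and 6.41 in the proliferations and 10.17 and 10.51 at day 50 (difference -3.98, SE 0.38, limma adjusted p = 0.000163). Fos read 6.41, 5.67 and 5.90 against 9.85 and 9.18 (difference -3.52, SE 0.56). Both are AP-1 subunits, as is Jun, which read 8.38, 8.47 and 8.19 against 10.53 and 10.51 (difference -2.17, SE 0.16), and Junb fell by 0.92 (SE 0.21). Atf3, a stress-induced factor, fell by 2.80 (SE 0.24), Ier2 by 1.77 (SE 0.24) and the phosphatase Dusp1 by 1.59 (SE 0.37). Egr1 differed by -1.28 (SE 0.42, limma adjusted p = 0.0604) without overlap. The day 50 cells were sorted and the proliferations were not, and for these quickly induced genes handling and genotype cannot be told apart. Against day 19 Cdkn2a/Braf cells, which were sorted too, the day 50 cells were higher in 8 of the 23 genes and lower in 1.

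Promoter windows of Fosb and Fos are shown as the AP-1 genes with the largest decreases, for the core letters of the cAMP response element. CREB binds such sites, and the CREB coactivators of the CRTC family are held back by salt-inducible kinases, which LKB1 activates. Capitals mark TGACG or its reverse complement CGTCA. The Fosb window is chr7:19309996-19310295 (- strand), with the match beginning 60 bases before the start. The Fos window is chr12:85473640-85473939 (+ strand), with matches beginning 129 and 66 bases before the start.
Fosb: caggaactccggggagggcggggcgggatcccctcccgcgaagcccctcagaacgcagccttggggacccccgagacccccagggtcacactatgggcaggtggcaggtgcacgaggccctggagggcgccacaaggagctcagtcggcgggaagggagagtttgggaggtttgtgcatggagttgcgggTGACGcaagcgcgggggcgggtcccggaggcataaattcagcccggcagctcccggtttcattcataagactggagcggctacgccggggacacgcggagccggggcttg
Fos: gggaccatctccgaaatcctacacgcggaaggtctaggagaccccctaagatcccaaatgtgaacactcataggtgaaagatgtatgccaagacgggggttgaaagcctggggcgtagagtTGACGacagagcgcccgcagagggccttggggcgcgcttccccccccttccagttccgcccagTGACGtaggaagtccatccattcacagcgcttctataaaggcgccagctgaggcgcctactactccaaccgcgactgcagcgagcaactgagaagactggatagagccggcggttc
On either strand these letters were found in 16 of the 26 windows of the immediate early list (61.5%) and in 20.8% of all windows, and 9 of the 13 called genes with a window hold them. The AP-1 letters TGAGTCA or TGACTCA were in 0 of these 26 windows and in 5.2% of all. Nothing about the binding of either factor follows from the letters. Of the 15 measured target genes of CREB and CRTC, 1 rose, Inhba, the activin A subunit (0.86, SE 0.25), and 1 fell, Dusp1.

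Part of the transcriptional output of the MAPK pathway was lower. Of 21 feedback and ETS genes, 7 fell and 1 rose, where 9.2% of all genes were called lower. The list median of -0.17 was near the -0.10 of all genes. Dusp4 and Dusp6, phosphatases that switch off ERK, fell by 1.76 (SE 0.37) and 1.25 (SE 0.27). Dusp6 read 7.31, 7.43 and 7.21 in the proliferations and 8.05 and 9.08 at day 50, and Dusp4 5.15, 5.59 and 5.15 against 6.24 and 7.86, so day 50 replicate 2 was the higher for both. Without it they were -0.74 for Dusp6 and -0.95 for Dusp4. Phlda1 fell by 1.61 (SE 0.17), Ier3 by 1.34 (SE 0.29), the ETS factor Elk3 by 1.07 (SE 0.17), and the feedback inhibitors Spry2 and Spred1 by 0.77 (SE 0.18) and 0.60 (SE 0.15). Epha4, an ephrin receptor, rose by 1.13 (SE 0.21). The lower count was 4 with array weights and 3 in the fit of only the 5 arrays.

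Few transcripts of the LKB1 and mTOR pathways themselves passed the test, a share near that of all genes. These pathways act mainly by phosphorylation, which arrays do not read. Of 18 genes of the LKB1 complex, AMPK and its substrates, 2 rose and 1 fell (list median 0.08, which turned to -0.05 with a common interquartile range). Strada, the pseudokinase partner of LKB1, read 7.49, 7.57 and 7.29 against 6.32 and 6.93 (difference 0.82, SE 0.18), and 0.52 without day 50 replicate 1. Acaca, the acetyl-CoA carboxylase that AMPK inhibits, rose by 0.96 (SE 0.20), and Fnip1, which binds AMPK and folliculin, fell by 1.43 (SE 0.16). Prkaa1, the catalytic AMPK subunit, read 10.29 and 7.98 at day 50 around proliferation values of 7.98 to 8.48, and did not pass. Among 18 AMPK-related kinases and CRTC genes, Mark4 rose by 0.49 (SE 0.12), and Sik3, a salt-inducible kinase, and Hdac4, one of its substrates, fell by 0.52 (SE 0.15) and 1.16 (SE 0.21). Of 32 genes of the mTOR complexes and TSC, 1 rose and 3 fell (list median 0.05). Rptor, the scaffold of mTORC1, rose by 0.67 (SE 0.15). Deptor and Akt1s1, inhibitors of mTOR, fell by 0.88 (SE 0.20) and 0.38 (SE 0.11), and Lamtor4, a part of the Ragulator that anchors mTORC1 to lysosomes, fell by 1.33 (SE 0.21). The lower count was 1 with array weights and in the fit of only the 5 arrays.

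Upstream of mTORC1, 5 of 22 PI3K, AKT and IGF genes rose and 6 fell (list median -0.05). The genes that rose were Igf1 (1.56, SE 0.46), Irs1 (1.33, SE 0.26), Akt2 (1.16, SE 0.24), Insr (1.02, SE 0.24) and Pdpk1 (1.01, SE 0.19). When day 50 replicate 1 was left out, Igf1 and Insr differed by 0.54 and 0.62 and did not pass (limma adjusted p = 0.166 and 0.0762), and Igf1 did not pass without any 1 of the proliferation arrays (0.0876 to 0.0988). Akt2 was 0.75 without day 50 replicate 1 and Inpp4b was -0.69 without replicate 2, and both still passed. Irs1, the insulin receptor substrate, read 7.81 to 8.36 in the proliferations and 6.45 and 6.99 at day 50, without overlap. Of the genes that fell, Igf2r clears IGF2 (-1.71, SE 0.27), Inpp4b and Phlpp1 are phosphatases that oppose AKT signalling (-1.15, SE 0.23, and -0.78, SE 0.15), and Foxo3 is a factor that AKT holds out of the nucleus (-1.10, SE 0.23). Pik3r3, a PI3K regulatory subunit, and Irs2 fell by 1.32 (SE 0.40) and 0.47 (SE 0.14). Genes that carry the insulin and IGF signal thus moved in both directions. The higher count was 2 with array weights and in the fit of only the 5 arrays, 3 without day 50 replicate 1, 8 without day 50 replicate 2 and 3 without proliferation replicate 3. Insulin signalling genes are also high in fat, whose markers rose in 8 of 12 (sums above), and their part was not tested.

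mTORC1 is known to promote amino acid supply through ATF4 and lipid synthesis through SREBP factors. Of 26 genes of ATF4 and amino acid supply, 5 rose and 1 fell (list median 0.17), where 9.11% of all genes were called higher. Asns, asparagine synthetase, read 7.90, 7.83 and 7.85 in the proliferations and 6.84 and 6.05 at day 50 (difference 1.42, SE 0.25). Gars, glycyl-tRNA synthetase, rose by 1.36 (SE 0.20), Slc1a5, a glutamine transporter, by 1.14 (SE 0.17), Vldlr by 1.03 (SE 0.21) and Cbs by 0.52 (SE 0.13), while Slc3a2, the partner of several amino acid transporters, fell by 0.92 (SE 0.23). Without day 50 replicate 2 the Slc3a2 difference was -0.45 (limma adjusted p = 0.0751), and it did not pass without any 1 of the proliferation arrays either (0.0537 to 0.0594). The higher count was 3 with array weights and 8 without day 50 replicate 2. Of 23 sterol and fatty acid synthesis genes, 7 rose and 2 fell (list median 0.20, -0.02 with a common interquartile range). Scd1, the desaturase abundant in sebaceous glands and fat, read 11.80, 12.04 and 12.08 against 9.33 and 7.03 (difference 3.79, SE 0.65), whereas its paralog Scd2 read 7.73, 7.93 and 7.81 against 10.51 and 9.80 (difference -2.33, SE 0.19), so the desaturases moved in opposite directions. Elovl6 and Me1 rose by 1.58 (SE 0.34) and 1.29 (SE 0.36), Fdps by 0.91 (SE 0.21), Acly by 0.54 (SE 0.13) and Fasn by 0.47 (SE 0.14). Fasn did not pass after median centring (limma adjusted p = 0.0657) or without any 1 of the proliferation arrays (0.0746 to 0.119). Acly did not pass without proliferation replicate 2 or 3 (limma adjusted p 0.0589 and 0.0541). Me1, malic enzyme, was 0.50 without day 50 replicate 2 (limma adjusted p = 0.115) and did not pass without any 1 of the proliferation arrays (0.0653 to 0.0936). Sebaceous and adipocyte markers rose beside them (sums above), and their part was not tested. The lipid count was 1 with array weights, 2 with the replicate block, and 4 without either day 50 array and without proliferation replicate 2 or 3.

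Glycolysis and hypoxia response genes rose in 8 of 26 and fell in 2 (list median 0.43). Egln3, the prolyl hydroxylase that HIF induces, read 9.66, 9.34 and 9.26 against 6.15 and 5.84 (difference 3.42, SE 0.49, limma adjusted p = 0.00135), or 10.7-fold. Slc2a1, the glucose transporter GLUT1, rose by 1.14 (SE 0.28), Pdk1 by 0.95 (SE 0.23), and the enzymes Pfkp, Ldha, Aldoa, Pkm and Hk1 by 0.50 to 0.91. With the mean of a gene's probe sets Hk1 was 0.01 and Pkm 0.45, and neither passed (limma adjusted p = 0.968 and 0.118). Hk1 was 0.12 with a common interquartile range and did not pass (limma adjusted p = 0.535). The count was 1 with array weights, 4 with the replicate block, 5 without proliferation replicate 1, 2 without proliferation replicate 2 and 4 without proliferation replicate 3. Of 29 oxidative phosphorylation genes 2 rose and 3 fell (list median 0.07, -0.27 with a common interquartile range and -0.17 without day 50 replicate 1). Ribosomal protein genes rose in 4 of 18 and fell in 0 (list median 0.12, -0.32 with a common interquartile range), and translation and ribosome biogenesis genes rose in 3 of 23 and fell in 1.

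Lysosomal genes moved in both directions. Of 27 genes, 5 rose and 4 fell (list median 0.05, -0.25 with a common interquartile range). Of all genes 9.11% were called higher and 9.2% lower. The cathepsins Ctss (5.21, SE 0.91), Ctsh (2.83, SE 0.20), Ctsl (1.76, SE 0.40) and Ctsb (0.86, SE 0.18) rose. Atp6v0d2, a proton pump subunit of osteoclasts and macrophages, read 9.14, 9.14 and 9.64 in the proliferations and 5.39 and 5.17 at day 50 (difference 4.03, SE 0.27). The pump subunits Atp6v1b2 and Atp6v0a1 fell by 1.75 (SE 0.18) and 1.02 (SE 0.23), Npc1, the cholesterol exporter, by 1.12 (SE 0.22) and the membrane protein Lamp1 by 0.38 (SE 0.11). Without day 50 replicate 1 Ctsl was 0.83, and Lamp1 was -0.23 and did not pass (limma adjusted p = 0.229). Without replicate 2 Ctsb was 0.57, Atp6v0a1 -0.53 and Npc1 -0.70. Macrophage markers, whose sum was 10070 to 11338 against 1293 to 1730, moved with the cathepsins, and their part was not tested. The lower count was 8 without day 50 replicate 1 and 1 in the fit of only the 5 arrays. Of 25 genes of the TFEB family and autophagy, 2 rose and 4 fell. Tfeb, the lysosomal master regulator, fell by 0.64 (SE 0.14) and Sqstm1, the autophagy receptor p62, by 0.98 (SE 0.19), while Wipi2 rose by 1.27 (SE 0.14). Without day 50 replicate 1, 7 of them were lower, and with array weights 1 was.

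**Figure D4:**
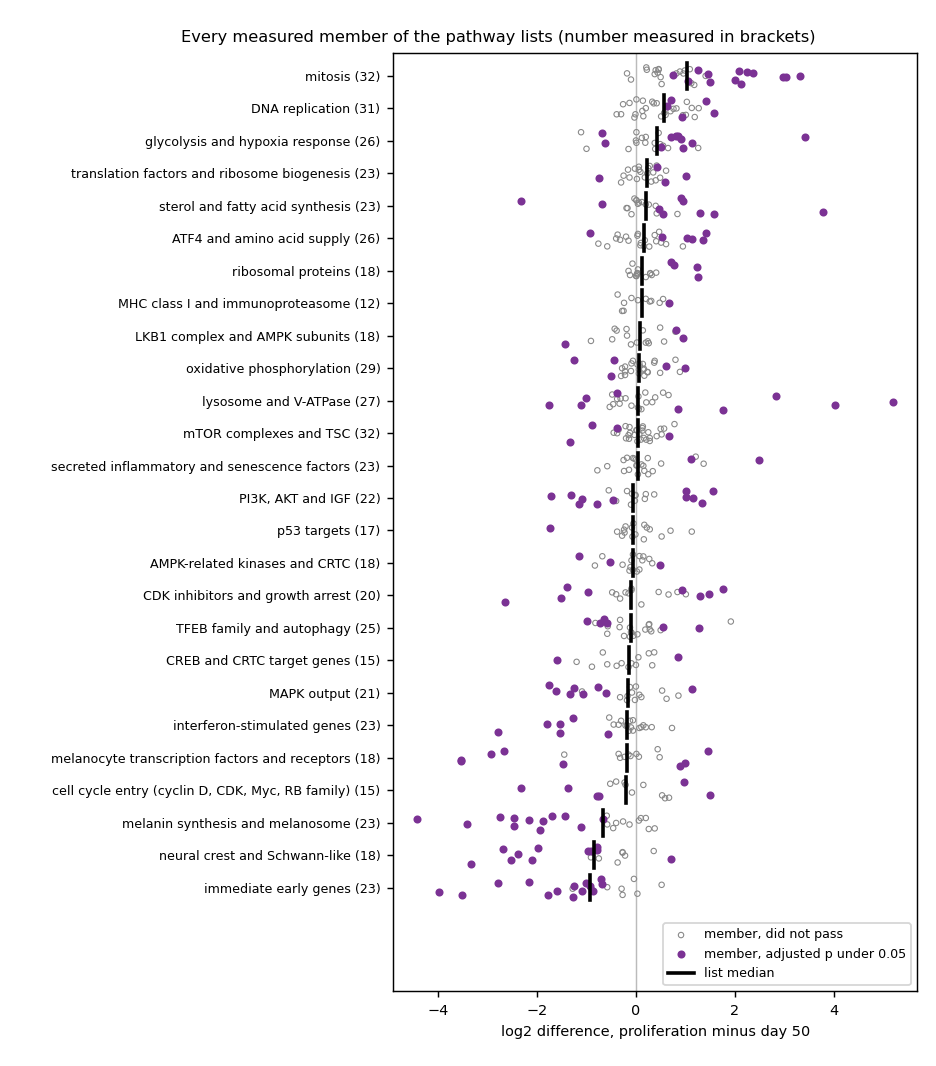
Log2 difference, proliferation minus day 50, of every measured member of the pathway lists, 1 row per list with the number measured in brackets and ordered by the list median (black bar). Filled points passed at an adjusted p under 0.05 and open points did not; the medians run from 1.03 for mitosis to -0.92 for immediate early genes.

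Some interferon-stimulated genes were lower in the proliferations, while the immune cell markers were higher there. Of 23, 6 fell and 0 rose (list median -0.18), against 9.2% of all genes called lower. Ifit3, an antiviral effector, read 7.08, 6.23 and 6.60 in the proliferations and 9.07 and 9.78 at day 50 (difference -2.79, SE 0.34). Stat2, which carries the type I interferon signal, read 7.08, 7.31 and 7.05 against 8.47 and 8.37 (difference -1.28, SE 0.16). Bst2 and Cxcl10 rested more on 1 array, with 9.40 and 8.90 on day 50 replicate 1 against 7.21 and 6.97 on replicate 2. Without replicate 1 their differences were -0.44 and -0.57, and neither passed (limma adjusted p = 0.055 and 0.19), nor did they without any 1 of the proliferation arrays. The count was 2 with array weights, 3 without day 50 replicate 1, 9 without day 50 replicate 2, and 3 without any 1 of the proliferation arrays. Of 12 MHC class I and immunoproteasome genes 1 rose and 0 fell (list median 0.12, -0.12 without day 50 replicate 2).

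Dpt, the matrix protein dermatopontin, led the 15 largest increases. It read 11.94, 11.96 and 12.03 in the proliferations and 4.91 and 4.21 at day 50 (difference 7.42, SE 0.61, limma adjusted p = 6.5e-05), or 171-fold. After it came AI506816 (5.97, SE 0.36), Adipoq, adiponectin (5.52, SE 0.56), Ctss, and Car3, a carbonic anhydrase of fat and muscle (5.16, SE 0.35). Lyz2, myeloid lysozyme, followed at 4.97 (SE 0.89), Krt25, an inner root sheath keratin, at 4.95 (SE 0.54), and Flg2, a filaggrin of the cornified layer, at 4.92 (SE 0.69). Skint9, of a family that supports epidermal T cells, differed by 4.84 (SE 0.18), and Tchh, trichohyalin of the inner root sheath, by 4.82 (SE 0.42). The last of the 15 were Krt23, a keratin (4.82, SE 0.29), Tyrobp, an adaptor of myeloid receptors (4.71, SE 1.06), Ccdc80, a matrix protein (4.61, SE 0.50), Tnnc2, fast troponin C (4.56, SE 1.06), and Hp, haptoglobin (4.54, SE 0.21). Tnnc2 read 9.59 on proliferation replicate 1 and 12.48 and 12.47 on the other arrays, as did the sum of the muscle list, and did not pass without replicate 2 or 3 (limma adjusted p 0.0551 and 0.0558).

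AI506816 was high in both groups with the Lkb1 genotype. It read 10.02, 9.75 and 10.31 in the proliferations and 4.51 and 3.59 at day 50. In Cdkn2a/Braf/Lkb1 melanoma, the other group with the Lkb1 genotype, it read 10.82 and 11.03. In Cdkn2a/Braf melanoma, also uncultured tissue, it read 3.65 and 4.40, and in the 4 sorted day 19 samples 3.37 to 4.40. Its difference from Cdkn2a/Braf melanoma was 5.99 (SE 0.36, limma adjusted p = 1.15e-05), close to the 5.97 from day 50. This gene was among those picked by the size of the present difference, and its level in the other groups was looked at afterwards. The sources used here say nothing of what the transcript does.

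Among the 15 largest decreases Tyrp1 led, followed by Fabp7, a fatty acid-binding protein of glia (-4.34, SE 0.56), and Mcoln3, an endolysosomal cation channel whose mutation disturbs pigmentation in mice (-4.14, SE 0.26). Next were Fosb, Gpm6a, a neuronal membrane glycoprotein (-3.98, SE 0.38), Prox1, a homeobox factor of lymphatic endothelium (-3.80, SE 0.48), and Cfap54, a cilium protein (-3.77, SE 0.50). Prox1 read 10.61 and 8.55 at day 50 and Cfap54 8.37 and 10.70, so the day 50 arrays differed widely for both, in opposite directions. Ednrb, Pax3, Fos, Pmel, Eya1, a transcriptional cofactor of neural crest derivatives (-3.41, SE 0.30), and Cdh19 completed the named decreases, and the remaining members of the 15 were small nucleolar RNAs. Of these 30 genes, 25 were tested under all 16 alternative settings and 20 of them passed the adjusted p in every one. Filters on low levels left the other 5 untested in at least 1 setting, and 24 of the 30 passed wherever they were tested. Counting every gene named here, 173 passed the test, 158 of them were tested in all 16 settings and 75 passed in every one. Array weights ended the most of these calls, and 0 of the 173 changed direction.

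**Figure D5:**
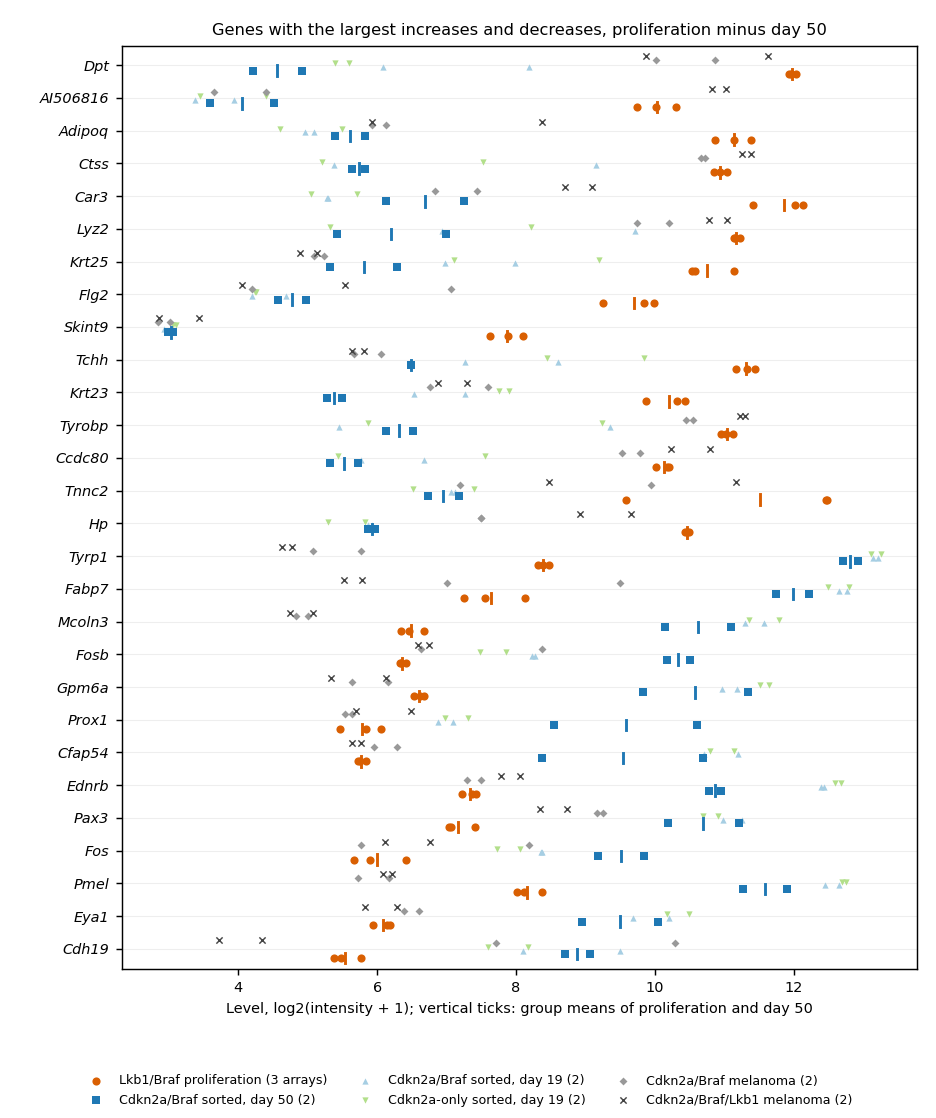
Genes with the largest differences, 1 row per gene, as log2(intensity + 1) on the horizontal axis, symbols as in the plot of pigment genes. Dpt lies at 11.94 to 12.03 on the proliferation arrays and at 4.21 and 4.91 on the day 50 arrays, and AI506816 at 9.75 to 11.03 in the groups with the Lkb1 genotype and at 3.37 to 4.51 in the rest.

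Levels in other groups place these differences. The comparisons below share the proliferation or the day 50 arrays with the one above, so their values are set side by side and not counted as support. Against Cdkn2a/Braf melanoma, the tissue that shares its material, the proliferations had 1770 genes higher (8.88% of those tested) and 2507 lower (12.6%). The melanomas read 4.76 and 4.44 for Xist, so sex also differed there. The pigment list, lower than at day 50 in 12 of 23, was higher than in melanoma in 12 and lower in 1 (median 0.91). Dct averaged 10.12 ± 0.12 (SD, n = 3) in the proliferations, 12.87 ± 0.26 (SD, n = 2) at day 50 and 5.47 in melanoma. Mitf was above melanoma by 0.55 (SE 0.15), and Pax3 was below it by 2.04 (proliferation minus melanoma -2.04, SE 0.27). For mitosis genes 1 of 32 was higher than in melanoma and 1 lower (median 0.22), and Mki67 was higher by 1.41 (SE 0.37). The melanoma arrays disagreed here, with mitosis sums of 9137 and 4043 on either side of the 6213 to 8295 of the proliferations. MAPK output genes were lower than in melanoma in 11 of 21 and higher in 1 (median -0.86), and Ccnd1 was lower by 2.08 (proliferation minus melanoma -2.08, SE 0.16). Cdkn1b was also below melanoma (-2.15, SE 0.20). Macrophage markers differed in neither direction as a list (2 higher, 1 lower of 20), while lipid synthesis genes were higher in 15 of 23 and lower in 1.

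From day 19 to day 50 the sorted Cdkn2a/Braf cells had 2211 genes higher (11.1%) and 2884 lower (14.5%). Xist and the Y-linked genes, 4 measured, had a median of -1.15 there with 0 higher and 0 lower. Whether sex differed between these samples was not tested. Pigment genes were lower at day 50 in 17 of 23, so the day 50 level to which the proliferations are compared was itself below that of growing cells. Dct and Tyrp1 did not pass in that comparison (-0.42, SE 0.27, and -0.36, SE 0.20). Cdkn1b differed by 0.36 (SE 0.21, limma adjusted p = 0.207), so its high day 50 level was also present at day 19, at 10.42 before arrest. Btg2, by contrast, was higher at day 50 than at day 19 by 1.80 (SE 0.37) and averaged 8.46 in the proliferations, 9.99 at day 50 and 8.19 at day 19. Of 32 mitosis genes 0 were higher and 4 lower at day 50 than at day 19 (median -0.22). For 31 DNA replication genes these counts were 0 and 3 (median -0.31), where 14.5% of all genes were lower. The mitosis sum was 3997 to 4651 at day 19, 2746 to 3224 at day 50 and 6213 to 8295 in the proliferations. Single mitosis genes varied: Mad2l1 averaged 8.74 in the proliferations, 5.43 at day 50 and 8.40 at day 19. Mki67, on the other hand, averaged 6.72 at day 50 and 6.61 at day 19, below the 8.71 of the proliferations. Ccnd2 averaged 10.45 in the proliferations, 8.97 at day 50 and 10.94 at day 19.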

How the data were processed

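The series matrix holds 34760 probe sets on 13 arrays as intensities, deposited on a linear scale (3.35 to 17698, array medians 68.3 to 80.5). Per the submitters' processing notes the authors made them with RMA, while the step to linear values is not described in the sources used here. RMA background remains in dim values, so differences of dim genes are understated. RNA was amplified with NuGEN reagents, per the labels' protocols. The fit was written for log2 values, and log2(intensity + 1) was used. The platform table lists 22961 probe sets, 21640 with 1 gene, 1321 with several (left out). Of the former 21553 matched RefSeq by Entrez identifier and 0 symbols changed. For 954 genes with several sets the one with the highest mean was used, giving 19937 genes. The file has 0 columns without a sample. limma 3.58.1 (R 4.3.3) fitted 6 group means over all 13 arrays (7 residual and 3.08 prior degrees of freedom), two-sided, with Benjamini-Hochberg adjustment. On simulated data with 200 changed genes it recovered 61.2%, 86.6% and 98.5% of log2 changes of 1, 2 and 3, and 6.82% of calls were false. The simulation gave all arrays the same SD for a gene, whereas the real day 50 pair varied more (SD 0.703 across genes). These rates therefore do not describe a comparison with the noisier day 50 arrays on 1 side. Named genes were the 15 largest in each direction among those past the test with a difference of at least 1 and no overlap, plus members of the lists and Braf, Stk11 and Cdkn2a. Small RNAs and genes with clone or predicted names of the Gm and Rik kind were counted but not named. The comparison and all 44 lists (783 genes measured of 855 written) were chosen with earlier results of these data known. The alternatives were another pseudocount, centring, scaling, filters, probe set means, moderation, array weights, the 5 arrays alone, the replicate number as a block, and leaving out each array. Replicate numbers do not pair the groups: same-numbered arrays deviated with r = 0.00277 and -0.05545 across genes. Tables and plots were made in Python 3.11.15 (matplotlib 3.10.9, numpy 2.4.6, pandas 2.3.3).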

Additional observations from a re-analysis of the deposited data

Results flagged for a closer look

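Probe sets that the platform table does not list, and that are unnamed here, also differed between the groups. Of 11799 such sets, 546 were called higher in the proliferations and 358 lower when fitted in the same way. The sources used here do not say what they measure.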

How the results depend on the processing

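The counts are the least stable values. Main counts were 1817 higher and 1835 lower, and 1002 and 511 with the added size and overlap rule. Lower genes numbered 3146 after median centring, 3796 with a common interquartile range (1065 under the added rule), 1032 among genes above the median level and 653 in the fit of only the 5 arrays. Array weights gave 709 higher (615 under the added rule) and 456 lower. With the replicate number as a block, which the labels do not support as a pairing, 1146 were higher and 879 lower. Leaving out each array gave 1273 to 2328 higher, 1044 to 2551 lower, 804 to 1376 higher under the added rule and 410 to 933 lower under it. Of 173 called genes named in the text 0 changed direction. Filters left 15 of them untested in at least 1 of the 16 settings, and of the 158 tested in all, 75 kept their call in every one. Of the genes that were not called, 6 turned sign. Leaving out each array, Stk11 ranged from -0.94 to 0.57, Prkaa1 from -2.06 to 0.25, Braf from -0.14 to 0.07, Cdkn2a from -0.27 to 0.07, Gpnmb from -1.35 to 0.44 and Krt5 from -0.05 to 1.01. With the replicate block Cdkn2a was 0.02. With 1 array left in the day 50 group, that array is assumed to vary like the other groups. The causes were not tested.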
